A study of Xiphophorus maculatus with 32 samples.

Results

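Visible blue light of 450–500 nm was 1 of 6 wavebands, each 50 nm wide, given to intact platyfish, Xiphophorus maculatus. RNA-Seq read counts per transcript were recorded in the skin, dissected after each exposure. The transcripts described here are those that differed between the 2 fish of the 450–500 nm group and the 2 fish of the 50 nm control group, 4 of the 32 samples of the series, chosen by their labels alone. The 10 fish of the other wavebands (300–350, 350–400, 400–450, 500–550 and 550–600 nm) were set beside them to ask which changes were particular to 450–500 nm. All fish were mature males of the inbred line Jp 163 B, in its 105th generation of brother-sister mating, aged 10 to 11 months. The dose was 21.2 kJ/m2 at 450–500 nm, against 7.3 kJ/m2 at 300–350 nm, 18.6 kJ/m2 at 350–400 nm, 21.6 kJ/m2 at 400–450 nm, 17.4 kJ/m2 at 500–550 nm and 13.8 kJ/m2 at 550–600 nm, so wavelength and dose cannot be told apart between wavebands. Exposed fish were kept in the dark for 14 h beforehand and for 6 h afterwards, and each library held the skin of 1 fish. Control fish received no light. The study describes them in one place as taken from the dark without handling and in another as kept just like the exposed fish, so the part of handling in the comparison with controls was not tested. Nothing in the labels says whether the fish of a group were exposed on separate occasions, so the p-values measure the spread between these fish only.

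Fish skin senses light directly. Its cells carry opsins and cryptochromes, flavin-bearing proteins related to the DNA-repairing photolyases, and peripheral clocks in fish tissues can be set by light without the eye. Short visible light also forms reactive oxygen species through cellular pigments and flavins, which heme oxygenase, heat shock proteins and glutathione peroxidases deal with, and fish skin renews its epidermis continuously, so that cell cycle transcripts are part of its normal make-up. Whole skin holds several cell types, and in such bulk samples fewer cells of a type and less RNA per cell cannot be told apart.

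Library totals were 16838749 and 19825171 counts in the 450–500 nm fish, against 23144055 and 23259744 in the controls, within a range of 14848517 to 41221463 over the 14 libraries of the 50 nm experiment. The deepest library was fish 2 of the 550–600 nm group. The count model tested 16722 of 20218 rows. Values are CPM, read counts scaled to the size and composition of each library. A transcript was called at a change of 2-fold or more with an edgeR quasi-likelihood p below 0.05 after Benjamini-Hochberg adjustment over all rows tested. Of the fixed marker list for cell types, 3 transcripts carried a name. FOXN1, an epithelial transcription factor in mammals, stood at 8.38 and 4.98 CPM in the 450–500 nm fish and at 6.18 and 6.98 CPM in the controls. MYL2B, a muscle myosin light chain, stood at 47.7 and 58.5 CPM, against 104.6 and 67.7 CPM in the controls (edgeR adjusted p = 0.329). LCP2A, an adaptor of immune cell signalling, was lower in both 450–500 nm fish at 46.1 and 41.8 CPM, against 71.2 and 65.0 CPM (log2 fold change −0.63 ± 0.15 SE, edgeR adjusted p = 0.032). The part of muscle or immune cells in the results below was not tested.

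Against the controls, 160 transcripts rose and 297 fell after 450–500 nm exposure, 0.957% and 1.78% of the 16722 tested, or 457 (2.73%) in all. The rises had a median log2 fold change of 1.34 (1.002 to 6.23) and the falls one of −1.33 (−6.25 to −1.001), beside a median of −7.2e-05 over all transcripts tested. The 160 transcripts that rose had a median level of 14.9 CPM in the 450–500 nm fish and 5.47 CPM in the controls. The 297 that fell had a median of 5.59 CPM in the 450–500 nm fish and 14.2 CPM in the controls. A change of at least 4-fold was fitted at 225 transcripts, of which 63 were called, 27 higher and 36 lower.

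The number of calls rested on the spread shared across the experiment and on each of the 4 fish. With the 4 libraries fitted alone by the same test, 2 transcripts were called higher and 1 lower. Leaving out 450–500 nm fish 1 gave 264 rises and 173 falls, and leaving out fish 2 gave 26 rises and 24 falls, with 198 and 39 of the 457 calls kept. Leaving out control fish 1 gave 23 and 64 calls, and leaving out control fish 2 gave 9 and 18. None of the 457 changed direction in these fits. That was largely built in, since both 450–500 nm fish lay beyond both controls at all 160 rises and all 297 falls.

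To ask which transcripts moved in both fish, each 450–500 nm fish was set against the mean of the controls on the log2 CPM scale with a prior count of 2. Fish 1 differed by at least 2-fold at 1330 transcripts and fish 2 at 1904. Both fish moved by at least 2-fold in the same direction at 643 transcripts, 227 upwards (1.36% of those tested) and 416 downwards (2.49%), and in opposite directions at 19. Among the calls, both fish had moved by at least 2-fold at 90 of the 160 rises and at 216 of the 297 falls. A call itself needs a fitted change of 2-fold, so these 2 counts are partly built in and are no test of agreement.

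**Figure D1:**
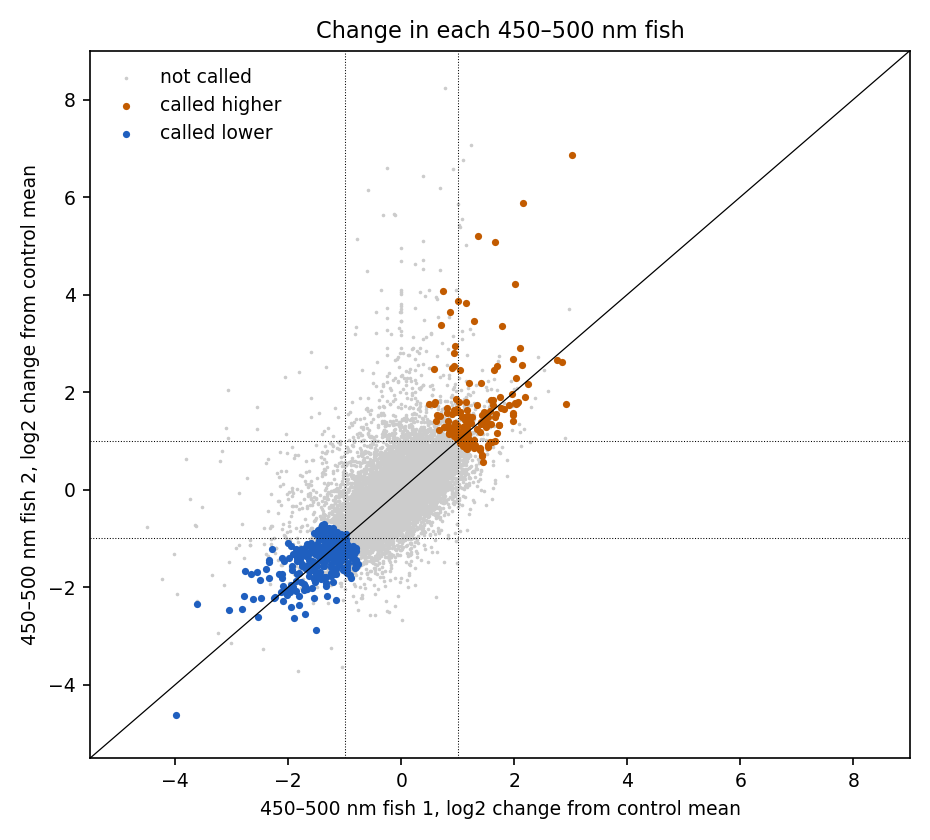
Log2 change from the mean of the 2 controls in 450–500 nm fish 1 (horizontal) and fish 2 (vertical), 1 point per transcript tested, with 160 called rises and 297 called falls coloured and dotted lines at a 2-fold change. The falls lie close to the line of equal change, while the largest rises lie well above it, higher in fish 2.

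The 450–500 nm fish differed from each other less often at the called falls than at the called rises, and widely at the largest rises. Calls favour transcripts with little spread between fish, so the shares below describe the called sets and are no test of agreement. The 10 largest falls had a median of 0.175 CPM in the 450–500 nm fish, where the prior count of 2 narrows differences between fish. The 450–500 nm fish differed from each other by at least 2-fold at 5 of the 297 falls (1.68%), at 22 of the 160 rises (13.8%) and at 1154 of all transcripts tested (6.90%). Of those 22 rises, fish 2 was the higher at 21. Among the 27 rises of at least 4-fold, the fish differed by at least 2-fold at 15, with a median of 1.58 on the log2 scale in favour of fish 2, and among the 10 largest unnamed rises at 9, in each of which fish 2 was the higher. Among the 36 falls of at least 4-fold, the 450–500 nm fish differed by at least 2-fold at 3, and among the 10 largest falls at 2. The 1154 transcripts compare with 355 between the control fish and 764 to 1098 within each other waveband. At some falls the control fish also varied. They differed by at least 2-fold at 11 of the 297 falls, and at 6 of the 36 of at least 4-fold. The count was 2 at the 160 rises, and the share over all transcripts tested was 2.12%.

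The largest rise belonged to ENSXMAT00000009203, which the sources used here do not name. It stood at 4.39 and 63.9 CPM in the 450–500 nm fish, between 0.798 and 10.4 CPM (median 1.79) in the 10 fish of other wavebands, and at 0.395 and 0.504 CPM in the controls. The 450–500 nm fish lay above both controls but 14.6-fold apart, and fish 1 lay within the other wavebands, whose highest values were the 10.4 and 9.11 CPM of the 550–600 nm fish. Its log2 fold change against the controls was 6.23 ± 1.17 (SE, edgeR adjusted p = 0.018), and 3.30 without fish 2 (edgeR adjusted p = 0.066).

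The second, ENSXMAT00000006503, stood at 22.4 and 295 CPM in the 450–500 nm fish, between 3.60 and 16.0 CPM in the other wavebands, and at 5.13 and 4.75 CPM in the controls. Here both 450–500 nm fish lay above all 12 other fish of the experiment, although 13.2-fold apart. The log2 fold change was 5.00 ± 1.04 against the controls (SE, edgeR adjusted p = 0.023), 2.21 without fish 2 (edgeR adjusted p = 0.107), and 4.07 against the mean of the other wavebands (edgeR adjusted p = 0.108).

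**Figure D2:**
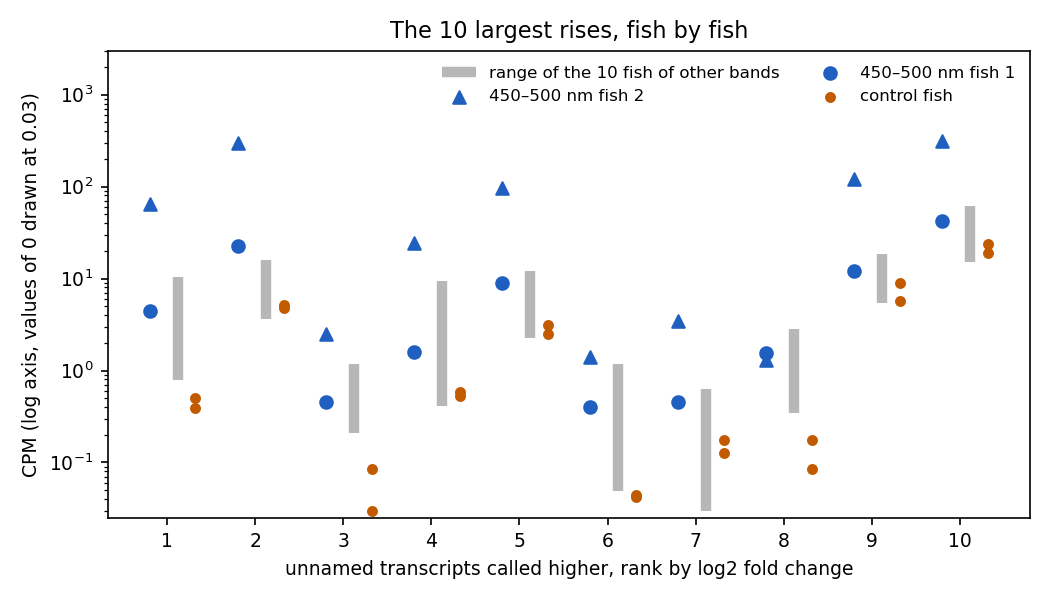
CPM on a log axis for the 10 largest unnamed rises, ranked by log2 fold change, in 450–500 nm fish 2 and fish 1, the range of the 10 fish of other wavebands and the 2 controls. Fish 2 is the higher 450–500 nm fish in 9 of the 10, and fish 1 often lies inside the range of the other wavebands.

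The largest falls were near the limit of detection. ENSXMAT00000009318 had 1 and 0 reads in the 450–500 nm fish, against 41 and 79 reads in the controls, a ratio of pooled CPM of 0.011 with an exact 95% counting interval of 0.00026 to 0.060. ENSXMAT00000012681 had 0 and 1 reads in the 450–500 nm fish, against 18 and 17 in the controls, a ratio of 0.036 with an interval of 0.00089 to 0.22. Both were called (edgeR adjusted p = 0.033 and 0.031) and both lost the call when any of the 4 fish was left out. Their median over the 10 fish of other wavebands was 0 CPM, with the 450–500 nm fish inside the range of those 10. The intervals cover counting error only.

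The most abundant called fall with both 450–500 nm fish below all 12 other fish was nearly equal in the 2. ENSXMAT00000008441, singled out after its values were seen, stood at 298 and 299 CPM in the 450–500 nm fish, between 341 and 651 CPM (median 497) in the 10 fish of other wavebands, and at 971 and 879 CPM in the controls. Fish at 450–500 nm were the lowest 2 of the 14 by that choice, which is no test of waveband. The 500–550 nm fish came next at 341 and 350 CPM. The log2 fold change was −1.63 ± 0.15 against the controls (SE, edgeR adjusted p = 0.0022), and −0.70 ± 0.12 against the mean of the other wavebands (edgeR adjusted p = 0.189).

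The rows are Ensembl transcript identifiers, and names were used for 87 of them, 62 from the study's NanoString panel and 25 that the table itself names. The panel's identifiers were read from page images, so its names carry that limit, and the 25 named rows are extra coding sequences that may share reads with an Ensembl transcript. Of the 81 named transcripts tested, 3 rose, 3 fell and 75 did not pass, with a median log2 fold change of −0.06, where 0.957% of all transcripts tested rose and 1.78% fell. The 6 left untested for low counts were NOS2, MAPK11, KISS1, ANXA5_2of2, FAM19A3 and PMEPA1. The panel was chosen by the study's authors for light response, so these counts are not those of an unselected set.

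The clock transcript that rose was CRY2A (ENSXMAT00000009327), a cryptochrome, which in vertebrates represses the clock's own activators. It stood at 39.5 and 46.5 CPM in the 450–500 nm fish, between 32.6 and 66.5 CPM (median 44.6) in the other wavebands, and at 16.0 and 18.4 CPM in the controls. All 12 exposed fish lay above both controls, and the 450–500 nm fish lay in the middle of the exposed. The rise was 2.50-fold (log2 1.32 ± 0.18 SE, edgeR adjusted p = 0.0082), with a difference from the mean of the other wavebands of −0.02 on the log2 scale (edgeR adjusted p = 0.989).

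Of the 5 clock transcripts, the remaining 4 did not pass, where 2.73% of all transcripts tested were called. BHLHE40, a repressor of the same activators, had 235 and 194 CPM in the 450–500 nm fish, against 372 and 313 CPM in the controls (log2 −0.67, edgeR adjusted p = 0.174). NR1D4, of the Rev-erb nuclear receptors, had 7.01 and 12.81 CPM, against 15.7 and 12.3 CPM. RORA, a receptor that competes with the Rev-erbs, had 3.99 and 4.30 CPM, against 4.38 and 4.29 CPM. The separate row named CRY2 was rare, at 0.342 and 0.363 CPM, against 0.395 and 0.756 CPM. The median log2 fold change of the 5 was −0.50.

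DNAH7 (ENSXMAT00000007381), a heavy chain of the dynein motors that drive motile cilia, was the named transcript most nearly set apart by waveband. It stood at 12.3 and 10.1 CPM in the 450–500 nm fish and at 2.24 and 3.07 CPM in the controls, a 4.22-fold rise (log2 2.08 ± 0.31 SE, edgeR adjusted p = 0.0099). Both 450–500 nm fish lay above all 12 other fish. They did so at 95 of the transcripts tested (0.568%), 10 of them among the 160 rises. Both lay below all 12 at 141 (0.843%), 21 of them among the 297 falls. All 160 rises and 297 falls already lay beyond both controls, so the counts of 10 and 21 are partly built in. The shares over all transcripts are not a like background for them. For DNAH7, the shorter wavebands gave 7.56 and 5.90 CPM at 300–350 nm, 8.32 and 5.05 CPM at 350–400 nm, and 9.02 and 9.08 CPM at 400–450 nm. The longer ones gave 4.98 and 2.90 CPM at 500–550 nm, and 5.53 and 5.00 CPM at 550–600 nm. DNAH7 was thus highest on both sides of 450 nm and lowest of the exposed groups at 500–550 nm. Levels exceeded those of the 500–550 nm fish by 1.52 ± 0.31 on the log2 scale (SE, edgeR adjusted p = 0.026). The difference from 400–450 nm was 0.31 ± 0.29 (SE, edgeR adjusted p = 0.997), and that from the mean of all 5 was 0.88 ± 0.21 (SE, edgeR adjusted p = 0.269).

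RAVER1 (ENSXMAT00000000218), an RNA-binding protein that partners a splicing repressor, had 3.02 and 2.64 CPM in the 450–500 nm fish, between 1.40 and 5.32 CPM in the other wavebands, and 11.3 and 15.6 CPM in the controls. It was 4.74-fold lower than in the controls (log2 −2.24 ± 0.40 SE, edgeR adjusted p = 0.017), and all 12 exposed fish lay below both controls. Of the 13 structural, matrix and developmental transcripts tested, DNAH7 rose, RAVER1 fell and 11 did not pass, with a median log2 fold change of 0.12, while 2.73% of all transcripts were called.

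KLHL38, a kelch-like protein, had the largest fitted change of any named transcript without passing. It stood at 2.85 and 4.82 CPM in the 450–500 nm fish, between 1.02 and 20.5 CPM in the other wavebands, and at 0.351 and 0.210 CPM in the controls (log2 3.75 ± 1.10 SE, edgeR adjusted p = 0.064, and 0.0074 by DESeq2). TGM8, a transglutaminase, differed widely between fish, with 42.0 and 141 CPM, against 49.3 and 22.6 CPM in the controls (log2 1.35). MTCL1, a microtubule crosslinker, had 2.05 and 1.14 CPM, against 0.307 and 1.26 CPM (log2 1.01).

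Among the 17 cell cycle and DNA repair transcripts tested, 1 fell and none rose, beside 1.78% and 0.957% of all transcripts. KPNA2 (ENSXMAT00000008371), an importin that carries proteins into the nucleus and is abundant in dividing cells, had 46.9 and 45.3 CPM in the 450–500 nm fish, between 25.3 and 99.9 CPM in the other wavebands, and 151 and 231 CPM in the controls. The 450–500 nm fish did not overlap the controls but lay inside the range of the other wavebands. It was 4.14-fold lower than in the controls (log2 −2.05 ± 0.52 SE, edgeR adjusted p = 0.042). The median log2 fold change of the 17 was −0.80, beside −7.2e-05 over all transcripts tested.

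Both 450–500 nm fish were below both controls at 8 of these 17 transcripts and above both at 2, where 30.6% and 28.1% of all transcripts did so. ECT2, which directs the cleavage of dividing cells, had 1.03 and 0.933 CPM, against 2.15 and 3.95 CPM in the controls (log2 −1.63, edgeR adjusted p = 0.099). NUMA1, a mitotic spindle protein, had 11.6 and 10.9 CPM, against 24.5 and 38.2 CPM (log2 −1.48, edgeR adjusted p = 0.082, and 0.022 by DESeq2). PIF1, a DNA helicase, had 2.62 and 2.07 CPM, against 4.38 and 7.82 CPM (log2 −1.38, edgeR adjusted p = 0.173). The controls were the highest fish in the whole experiment for KPNA2, NUMA1, ECT2 and PIF1. The other wavebands reached only 99.9, 20.4, 2.07 and 4.15 CPM, in that order. Their medians for ECT2 and PIF1 were 0.983 and 2.05 CPM, near the 450–500 nm fish.

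Of the 9 stress response transcripts tested, 1 fell and none rose, beside 1.78% and 0.957% of all transcripts. The one that fell was the row named GPX6, a glutathione peroxidase, with 1.60 and 1.71 CPM in the 450–500 nm fish, between 0.842 and 3.17 CPM in the other wavebands, and 4.30 and 6.51 CPM in the controls. It was 3.26-fold lower (log2 −1.70 ± 0.40 SE, edgeR adjusted p = 0.034). HMOX1, heme oxygenase, had 44.0 and 55.9 CPM in the 450–500 nm fish and 14.4 and 12.6 CPM in the controls without passing (log2 1.89 ± 0.82 SE, edgeR adjusted p = 0.164). Fish within a waveband were far apart for HMOX1, with 88.1 and 9.42 CPM at 350–400 nm and 14.4 and 47.1 CPM at 400–450 nm. HSPA4, of the heat shock protein 70 family, had 58.7 and 68.0 CPM, against 35.8 and 40.3 CPM in the controls (log2 0.74, edgeR adjusted p = 0.076).

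The endoplasmic reticulum chaperone row CALR3_1of2 had 6.44 and 30.9 CPM, against 9.12 and 13.99 CPM in the controls, and HSP90AB1 had 496 and 1292 CPM, against 1065 and 954 CPM. For both, the 450–500 nm fish lay on either side of the controls. The median log2 fold change of the 9 was −0.09.

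None of the 18 receptor, calcium and kinase transcripts passed, where 2.73% of all transcripts tested were called. Their median log2 fold change was 0.01. GNA15, a G protein alpha subunit, came nearest with 14.8 and 22.7 CPM in the 450–500 nm fish, against 8.42 and 5.50 CPM in the controls (log2 1.43 ± 0.40 SE, edgeR adjusted p = 0.054, and 0.0055 by DESeq2). CREB5, a cyclic AMP responsive transcription factor, had 4.22 and 7.31 CPM, against 1.89 and 3.32 CPM (log2 1.15). The protein kinase C row PRKCE_1of2 had 0.570 and 1.40 CPM, against 1.97 and 3.53 CPM (log2 −1.47, edgeR adjusted p = 0.073).

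The 4 named members of the epidermal growth factor pathway gave no call, where 2.73% of all transcripts tested were called. PRKCA, protein kinase C alpha, had 28.8 and 18.9 CPM in the 450–500 nm fish, against 22.8 and 33.1 CPM in the controls. MAP2K1, the kinase that activates ERK, had 11.2 and 6.07 CPM, against 6.71 and 10.1 CPM. ITPR3, a calcium release channel, had 189 and 112 CPM, against 107 and 112 CPM. IRS2, an insulin receptor substrate, had 15.4 and 99.1 CPM, against 20.8 and 22.9 CPM, so that its log2 fold change of 1.39 (edgeR adjusted p = 0.370) became −0.48 without fish 2.

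None of the 9 metabolic and hormonal transcripts passed either, beside 2.73% of all transcripts tested. Their median log2 fold change was 0.57. PPAR, a lipid-sensing nuclear receptor, had 1.71 and 2.33 CPM in the 450–500 nm fish, against 1.01 and 1.05 CPM in the controls (log2 0.97). TSHB, the beta chain of thyroid-stimulating hormone, had 0.228 and 1.09 CPM, against 0.175 and 0.504 CPM. PKFB1, named as in the panel, had 6.61 and 5.24 CPM, against 4.47 and 2.56 CPM (log2 0.75).

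Of the 10 panel housekeepers, 1 was called, where 2.73% of all transcripts tested were called. ENSXMAT00000020266, which the panel gives only a clone name, had 9.12 and 15.8 CPM in the 450–500 nm fish, between 5.62 and 53.6 CPM in the other wavebands, and 1.67 and 2.48 CPM in the controls. It rose (log2 fold change 2.58 ± 0.46 SE, edgeR adjusted p = 0.016), and it was lower after 450–500 nm than after 500–550 nm, where the fish had 53.6 and 32.6 CPM (log2 −1.78 ± 0.41 SE, edgeR adjusted p = 0.049). LCP2A passed the adjusted p but not the size of change. FLT4, a receptor of lymphatic endothelium, had 23.4 and 22.6 CPM in the 450–500 nm fish, against 32.8 and 31.9 CPM in the controls (log2 −0.49, edgeR adjusted p = 0.082), and SI_DKEY-1C7.1 had 7.47 and 6.07 CPM, against 11.2 and 9.54 CPM (log2 −0.62). The other 8, these included, had log2 fold changes of −0.62 to 0.35.

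**Figure D3:**
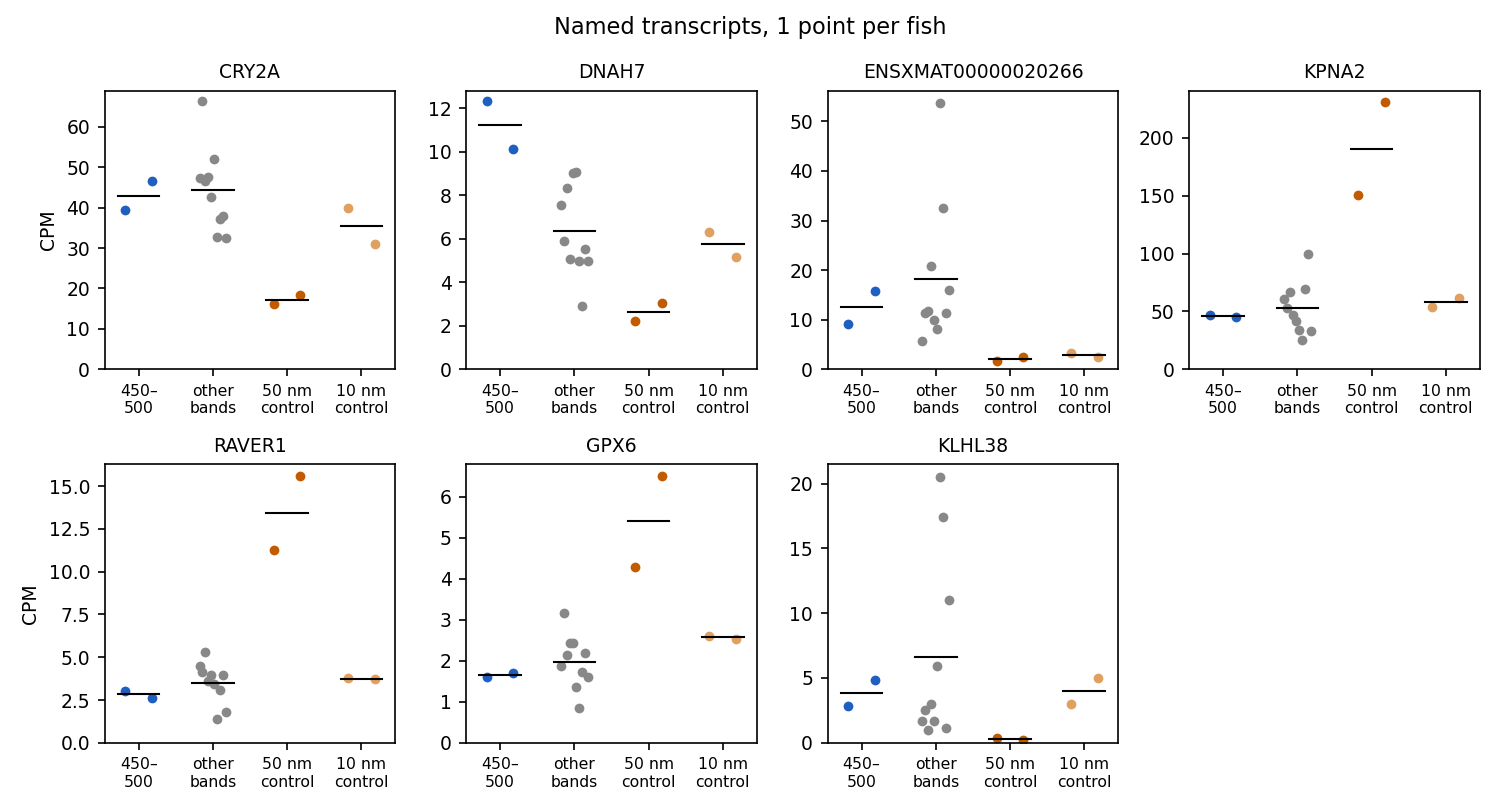
CPM in each fish for the 6 named transcripts called against the controls and for KLHL38, in the 2 fish at 450–500 nm, the 10 fish of other wavebands, the 2 controls of the 50 nm experiment and the 2 controls of the separate 10 nm experiment, with group means as lines. The 450–500 nm fish overlap the other wavebands except for DNAH7. The 10 nm controls lie near the exposed fish for CRY2A, KPNA2, RAVER1 and KLHL38 but near the 50 nm controls for ENSXMAT00000020266. For DNAH7 and GPX6 they lie between the 450–500 nm fish and the 50 nm controls.

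The 2 control fish of the separate 10 nm experiment in the same series gave a second view of the unexposed level. With those libraries scaled together with the rest, CRY2A had 39.2 and 45.9 CPM in the 450–500 nm fish, against 40.0 and 31.0 CPM in the 10 nm controls and 15.8 and 17.96 CPM in the 50 nm controls. KPNA2 had 54.0 and 61.6 CPM, RAVER1 had 3.78 and 3.71 CPM and KLHL38 had 3.03 and 4.97 CPM in the 10 nm controls. Each was nearer to the 450–500 nm fish than to the 50 nm controls. DNAH7, at 6.33 and 5.14 CPM, and GPX6, at 2.61 and 2.52 CPM, lay between the 450–500 nm fish and the 50 nm controls. For DNAH7 those 10 nm control levels were inside the range of the fish of other wavebands. ENSXMAT00000020266, at 3.23 and 2.45 CPM, was instead near the 50 nm controls. HMOX1 had 9.50 and 9.54 CPM in the 10 nm controls, below the 14.2 and 12.4 CPM of the 50 nm controls. With all 4 controls it still did not pass (log2 2.11 ± 0.62 SE, edgeR adjusted p = 0.092). The experiment and the control group cannot be told apart in this comparison.

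With all 4 controls in 1 group, 67 transcripts were called higher and 48 lower (0.399% and 0.286% of 16775), and 78 of the 457 calls were kept, while 5 of the 457 turned in direction. Among the 6 named, ENSXMAT00000020266 (log2 2.35, edgeR adjusted p = 0.024) kept its call. DNAH7 (log2 1.42, edgeR adjusted p = 0.060), GPX6 (log2 −1.27, edgeR adjusted p = 0.139), RAVER1 (log2 −1.60, edgeR adjusted p = 0.153), CRY2A (log2 0.70, edgeR adjusted p = 0.203) and KPNA2 (log2 −1.43, edgeR adjusted p = 0.208) lost theirs, while GNA15 (log2 1.41, edgeR adjusted p = 0.048) gained one. Of the unnamed transcripts given above by identifier as the largest changes, ENSXMAT00000009203 (edgeR adjusted p = 0.037) and ENSXMAT00000006503 (edgeR adjusted p = 0.024) kept their calls. The largest falls did not: ENSXMAT00000009318 had 0.206 and 0.477 CPM in the 10 nm controls (edgeR adjusted p = 0.124), and ENSXMAT00000012681 had 0.0688 and 0.0681 CPM (edgeR adjusted p = 0.206). Both 450–500 nm fish lay above all 4 controls at 82 of the 160 rises and below all 4 at 195 of the 297 falls. All 160 rises and 297 falls already lay beyond the controls that gave the calls, so these counts turn on the 10 nm controls only. The shares over all transcripts, 12.7% above and 14.6% below, carry no such selection and are not a like background.

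To find what was particular to 450–500 nm, its fish were compared directly with the other wavebands. Control levels do not enter that contrast, although the control libraries contribute to the scaling and to the shared spread. In the comparisons with the controls, which every waveband shares, 33 of the 160 rises and 46 of the 297 falls were called at 450–500 nm only. Calls in all 6 wavebands, counted elsewhere in either direction, numbered 28 and 28. The 450–500 nm fish differed from each other by at least 2-fold at 18 of the 33 rises and at 1 of the 46 falls. Fish 2 was the higher at all 18, and the share over all transcripts tested was 6.90%. Of all 16722 transcripts tested, 15222 were called in none of the 5 other wavebands and 58 in all 5. Since the same control fish enter every comparison, these calls are not independent. A call missing elsewhere does not show a difference. Against the mean of the 5 other wavebands, no transcript was called in the edgeR test (0% of 16722), although 1354 had an unadjusted p below 0.05. DESeq2 called 43 higher (0.257%) and 1 lower in the same comparison.

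In that comparison 1 transcript passed on significance alone, ENSXMAT00000014093 (edgeR adjusted p = 0.030), named here after its values were seen. It stood at 101 and 82.1 CPM in the 450–500 nm fish, 45.2 and 43.8 CPM at 300–350 nm, 102 and 90.7 CPM at 350–400 nm, 81.7 and 88.0 CPM at 400–450 nm, 27.9 and 27.1 CPM at 500–550 nm, 33.0 and 34.0 CPM at 550–600 nm, and 67.2 and 77.4 CPM in the controls. It was thus lower in the wavebands between 500 and 600 nm and at 300–350 nm, and the 3 wavebands from 350 to 500 nm overlapped. The log2 difference from the mean of the others was 0.85 ± 0.09 (SE), below the size required for a call.

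Calls of transcripts higher at 450–500 nm than in the other wavebands changed with which of its fish was left out. With fish 1 left out, so that the lone fish 2 was assumed to vary like the other groups, 131 transcripts were called higher than the mean of the other wavebands (0.770% of 17017) and 63 higher than at 400–450 nm. Counting both directions, 102 were called against the other wavebands and, the same way, against the controls. With fish 2 left out, 1 transcript was called higher than the mean of the others, ENSXMAT00000014093, and 0 against 400–450 nm. Of the 131, 123 were among those tested with both fish. As a description of a set chosen by fish 2, fish 1 stood at a median of 0.04 on the log2 scale from the other wavebands at these 123, and fish 2 at 1.79. Among the 43 transcripts that DESeq2 called higher, fish 2 exceeded fish 1 by at least 2-fold at 38, and fish 1 itself lay at least 2-fold above the others at 5. No named transcript was among the 123 or the 43.

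By edgeR, calls against single wavebands appeared only against the 2 longer ones. No transcript was called against 400–450 nm (0% of 16722, 631 at an unadjusted p below 0.05, lowest edgeR adjusted p = 0.997), where DESeq2 called 7 higher and 1 lower. None was called by edgeR against 300–350 nm (1497 at an unadjusted p below 0.05) or 350–400 nm (1446). Against 500–550 nm, 148 were higher (0.885%) and 7 lower (0.0419%), and against 550–600 nm, 113 were higher (0.676%) and 0 lower (0%) by edgeR. DESeq2 called 206 higher and 41 lower against 500–550 nm, and 160 higher and 7 lower against 550–600 nm.

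**Figure D4:**
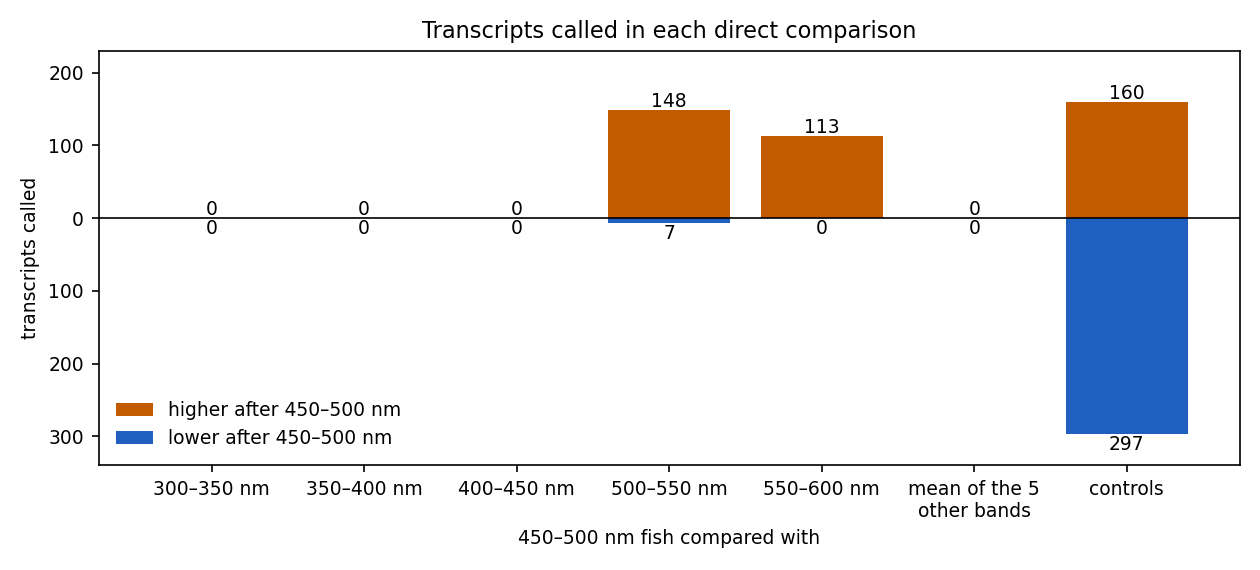
Number of transcripts called higher (upwards) and lower (downwards) in the 450–500 nm fish than in each other waveband, the mean of the 5 others and the controls. Calls appear against 500–550 nm (148 and 7), 550–600 nm (113 and 0) and the controls (160 and 297), and none against the shorter wavebands or the mean.

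The 148 transcripts higher at 450–500 nm than at 500–550 nm included 4 of the 160 rises against the controls, which make up 0.957% of all transcripts tested. Their median log2 fold change against the controls was 0.31, and their median levels were 58.4 CPM in the 450–500 nm fish and 51.7 CPM in the controls. In the 500–550 nm fish, 53 of the 148 were called lower than in the controls. The 148 were chosen by low levels in those same fish, so this count is partly built in and is no separate support. Within the 450–500 nm group, the fish differed by at least 2-fold at 3 of the 148. Of the 113 higher than at 550–600 nm, 3 were among the 160 rises. In the 550–600 nm fish, 41 of the 113 were called lower than in the controls, a count partly built in for the same reason. These counts depended on single fish of the longer wavebands, with 26 rises left of 148 without 500–550 nm fish 2, and 21 and 31 of 113 without 550–600 nm fish 1 or fish 2.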

How the data were processed

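The authors trimmed the paired reads, aligned them with GSNAP to Ensembl X. maculatus transcripts, counted them with xEpress and deposited raw counts per transcript. How reads that fit several transcripts were shared out is not given in the sources used here. Counts were analysed in R 4.3.3 with edgeR 4.0.16 (filterByExpr, TMM scaling, glmQLFit and glmQLFTest) over the 14 libraries of the 50 nm experiment with 1 mean per group, and standard errors came from the F statistic (size of the log2 change over the root of F). One panel transcript is not reported here by name. Sequences and genome positions of the transcripts were not analysed here. The FL control columns repeat the 50 nm control columns and were not used. Sham-exposed fish were not analysed here, and no transcripts were removed on their account. Full values are given for named transcripts called, for 4 epidermal growth factor members and for up to 3 more per role, and for the largest unnamed rises and falls. The transcripts and lists were chosen with earlier results of these data known. Alternatives were other scaling (RLE), no filter, DESeq2 1.42.0, the edgeR exact test, fewer or more libraries, and other prior counts. The tests were checked on simulated counts.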

Additional observations from a re-analysis of the deposited data

Results flagged for a closer look

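Levels of some transcripts at 450–500 nm differed from those at the longer wavebands by direct edgeR test, while dose differed too. Against 500–550 nm, 148 transcripts were higher and 7 lower, and against 550–600 nm 113 were higher. The 148 had a median log2 fold change of only 0.31 against the controls and held 4 of the 160 rises. The counts of 148 and 113 depended on single fish of the longer wavebands. Of the named transcripts, DNAH7 was 1.52 higher on the log2 scale than at 500–550 nm, and the panel housekeeper ENSXMAT00000020266 differed by −1.78 on the same scale.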

How the results depend on the processing

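With 2 fish a group, each count depended on single fish and on the test. Between wavebands, only some of the exposed fish were left out, so those ranges do not cover every fish. Against the mean of the others, they were the 2 fish at 450–500 nm and fish 2 at 550–600 nm. Against 400–450 nm, only the 2 fish at 450–500 nm were left out. For 500–550 and 550–600 nm, the fish of both groups compared were left out in turn. Against the controls, rises ranged from 9 to 264 and falls from 18 to 173 when 1 fish was left out. They were 307 and 566 by the exact test, 2 and 1 with the groups fitted alone and 67 and 48 with 4 controls, and DESeq2 gave 290 rises. Against the mean of the other wavebands, leaving out a fish gave 0 to 131 rises and 0 to 2 falls, with 0 to 102 of them also called against the controls. DESeq2 gave 43, 1 and 38 for the same 3 counts, and 2 rises appeared when either 350–400 nm or 400–450 nm was left out of the mean. Against 400–450 nm, leave-outs gave 0 to 63 rises and 0 to 1 falls, and DESeq2 gave 7 and 1. Against 500–550 nm they gave 26 to 201 and 1 to 7, and DESeq2 gave 41 falls. Against 550–600 nm they gave 21 to 223 and 0 to 15, and DESeq2 gave 7 falls. Moves in both fish numbered 118 upwards with a prior count of 10, and 86 upwards and 144 downwards at a mean of at least 10 CPM. Replicate numbers join different fish. Same-numbered deviations of the 450–500 nm fish correlated across transcripts at −0.05 with the controls, 0.03 with 300–350 nm, 0.27 with 350–400 nm, 0.09 with 400–450 nm, 0.26 with 500–550 nm and 0.33 with 550–600 nm, so not every pair was over 0.1 and the numbers were not taken as pairs. A replicate block gave 163 rises and 271 falls against the controls and 2 falls against 550–600 nm, and with it KPNA2 lost its call (edgeR adjusted p = 0.051) and KLHL38 gained one (edgeR adjusted p = 0.040). RLE scaling and no filter on low counts moved no count by over 1.5 times. Among the named values, uncalled ones changed sign: MAP2K1 was −0.037 with the replicate block, −1.32 with 4 controls and −0.47 to 0.45 over the leave-outs, and CALR3_1of2 was −0.15 with 4 controls and −0.81 to 1.42 over the leave-outs. IRS2 ranged from −0.48 to 2.18, PRKCA from −0.56 to 0.076 and TSHB from −0.54 to 1.89. Every named call was lost in at least 1 leave-out. The causes were not tested.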
